A study of Mus musculus with 12 samples.

Results

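The cytochrome P450 genes were compared in crypts of Zfp148gt/+APCMin/+ mice and of Zfp148+/+APCMin/+ controls. A gene was counted as a member where the single array symbol of a row read Cyp, a number, a letter and an optional number, without the -ps ending of pseudogenes; Cyp24a1, Cyp51 and Cyp27b1 were left out. This gave 87 genes on 91 of the 33793 rows (transcript clusters) of the array, of which 23521 carried 1 symbol. A gene with several rows was represented by its brightest row. The data are 1 Affymetrix Gene 2.0 ST array per mouse, from 6 mice of each genotype aged 12 weeks, hybridised with 250 ng of total RNA from crypt-enriched tissue that was cut by laser from sections of the proximal small intestine. All mice were heterozygous for APCMin, which gives intestinal adenomas, so the controls were tumor-prone too. The gt allele is a gene trap in 1 copy of Zfp148 in every cell of the body, on a mixed background of strains 129 and Bl6. The methods speak of littermate controls and do not say which mice were littermates, so the mice, each labelled with its own number, were treated as independent.

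P450 enzymes are haem proteins that insert an oxygen atom into lipophilic substrates, with electrons passed on by a reductase in the endoplasmic reticulum or by ferredoxin in mitochondria. Families 1 to 3 clear drugs, dietary compounds and other foreign chemicals and also act on arachidonic acid and steroids, family 4 oxidises fatty acids and eicosanoids, and the higher families make or break down bile acids, steroid hormones and retinoic acid. In the small intestine, P450 enzymes of families 2 and 3 are known mainly from mature enterocytes of the villus, where they act on compounds taken up from the gut.

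Promoter sequence was available in RefSeq (GRCm38.p6) for 68 of the 87 genes, as 250 bases before and 50 after each gene's start, and 2 windows of intestinal 2C genes described below are shown because P450 genes of liver and gut are known targets of the nuclear receptor HNF4A. The motifs were chosen with values of the genes known and were searched on both strands. The HNF4A motif CAAAGTCCA was found in 8 of the 68 promoters (11.8%), against 0.555% of all 27025 promoters of this length. Of its 8 genes, Cyp2c40, Cyp2c65, Cyp2c68, Cyp2c69 and Cyp2c70 belong to subfamily 2C, and the others were Cyp3a11, Cyp3a16 and Cyp8b1. Only the 2 shown, Cyp2c65 and Cyp2c68, had a mean signal above the median of all rows. The TATA motif TATAAA was found in 41.2% of P450 promoters and in 15.7% of all. The AHR core GCGTG was found in 22.1% of P450 promoters and 35.2% of all, and CCCTCCCC, of the GC-rich kind that Zfp148 is known to bind, in 7.35% and 12%. Neighbouring genes of a P450 cluster arose by duplication and share sequence, so these counts are not independent. In each window, printed 5′ to 3′ on the strand of the gene, the capitals mark CAAAGTCCA, starting 116 bases before the start of Cyp2c65 and 77 before that of Cyp2c68.
Cyp2c65, chr19:39060830-39060958, plus strand: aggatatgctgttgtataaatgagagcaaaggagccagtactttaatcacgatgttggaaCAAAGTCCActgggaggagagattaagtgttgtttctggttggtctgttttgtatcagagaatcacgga
Cyp2c68, chr19:39741110-39741238, minus strand: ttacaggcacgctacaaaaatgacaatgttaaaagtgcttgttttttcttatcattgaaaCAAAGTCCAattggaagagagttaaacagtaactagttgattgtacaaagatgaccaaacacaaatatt
Matches of letters are descriptions of these windows and show no binding.

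Signals are log2 values, so a difference of 1 is a doubling. Signals of different rows depend on their probes and were not compared as mRNA amounts. The median of all rows, 2.71, served only to separate brighter from dimmer rows. Array medians lay between 2.64 and 2.78. The interquartile range of the signals was 2.69 to 2.93 in Zfp148gt/+APCMin/+ mice and 2.80 to 3.0 in controls. Zfp148 was lower in every Zfp148gt/+APCMin/+ mouse (5.01 to 5.95) than in every control (6.06 to 6.88). Paneth cell markers, which define crypts of the small intestine, were bright, with a mean of 10.26 to 11.30 in Zfp148gt/+APCMin/+ mice and 10.49 to 10.95 in controls. Markers of villus enterocytes were present too, with means of 5.75 to 6.76 and 5.93 to 6.91. All 12 fibroblast and matrix markers had lower means in Zfp148gt/+APCMin/+ mice (mean of the list 6.28 to 6.81, against 6.70 to 7.29). At an unadjusted p under 0.05 in limma 5 of them were lower, against 5.08% of all brighter rows. None passed after adjustment (smallest adjusted p 0.705). All 12 were brighter rows, of which 41.6% over the whole array were higher. Of 10 hepatocyte markers 4 were above the median signal, and albumin was not (1.96).

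No P450 gene passed the adjusted test between genotypes, and the smallest adjusted p was 0.725 (limma, Benjamini-Hochberg over all rows), where 0.0% of all rows passed. At an unadjusted p under 0.05, 6 of 87 members were higher in Zfp148gt/+APCMin/+ mice (Cyp2c39, Cyp2d13, Cyp2j11, Cyp3a16, Cyp7a1 and Cyp8b1), against 3.88% of all rows called higher. In the other direction 1 member was lower (Cyp2j9), against 2.88% of all rows. With each array centred on its median, or after another quantile normalization, 2 were higher (Cyp2c39 and Cyp8b1) and 1 was lower. The median difference, Zfp148gt/+APCMin/+ minus control, was 0.07 over the members and 0.02 over all rows. In no member did the groups separate without overlap, as 0.308% of all rows did.

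The members differed by their brightness. Of the 30 above the median signal, 14 were higher and 16 lower in Zfp148gt/+APCMin/+ mice, or 46.7% higher beside 41.6% of all brighter rows. Their median difference was -0.05, beside -0.04 for all such rows. At an unadjusted p under 0.05 there was 1 higher, against 2.41% of the brighter rows, and 1 lower, against 5.08%. Of the 57 below it, 43 were higher and 14 lower, or 75.4% higher beside 68.0% of all dimmer rows. Their median difference was 0.08, beside 0.06 for all dimmer rows. Here 5 were higher, against 5.36% of the dimmer rows, and 0 were lower, against 0.675%. The mean over the 57 dimmer members was 2.06 ± 0.03 (SD, n = 6) in Zfp148gt/+APCMin/+ mice and 1.96 ± 0.04 (SD, n = 6) in controls. The narrower interquartile range of the Zfp148gt/+APCMin/+ arrays moved with this value, and its part was not tested. The mean over the 30 brighter members was 4.18 ± 0.17 and 4.23 ± 0.12 (SD, n = 6 each). The brighter P450 genes varied widely between mice of the same genotype. Their median SD within a genotype, pooled over both genotypes, was 0.389, beside 0.307 over all brighter rows. The median range over the 12 mice was 1.31, beside 1.05. The 95% confidence interval of their genotype difference reached a median of 0.444 to either side. Just above the median signal lay Cyp4f16 (2.74), and just below it Cyp2c55 (2.71). The counts of higher and lower genes by family below stand beside the shares of all rows higher, 68.0% of dimmer and 41.6% of brighter ones.

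**Figure D1:**
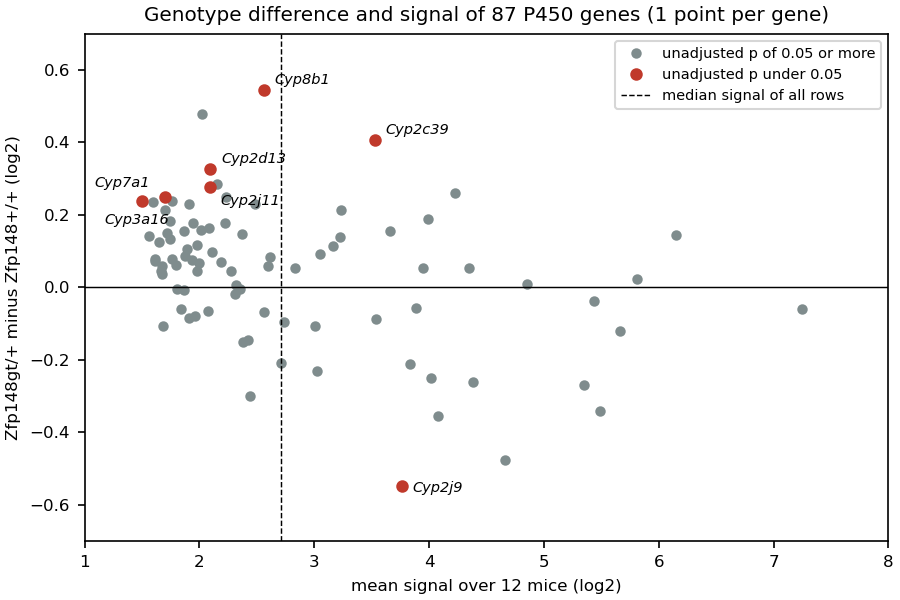
Difference between genotypes (log2, Zfp148gt/+APCMin/+ minus control) against mean signal (log2) for the 87 P450 genes, 1 point per gene; red points have an unadjusted p under 0.05. Of the 57 genes left of the dashed median of all rows 43 lie above 0, and of the 30 to its right 14 do. Over all rows of the array, 68.0% of the dimmer and 41.6% of the brighter ones were higher.

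Cyp2j9 had the largest decrease of all members and was the only member lower at an unadjusted p under 0.05. Its product belongs to subfamily 2J, which epoxidises and hydroxylates arachidonic acid. In control mice 782, 885, 888, 889, 895 and 899 its signal was 4.05, 4.31, 4.25, 4.12, 3.67 and 3.84, and in Zfp148gt/+APCMin/+ mice 783, 891, 892, 893, 897 and 911 it was 4.32, 3.19, 2.87, 3.29, 3.65 and 3.64. Thus 5 of 6 Zfp148gt/+APCMin/+ mice lay below every control, and mouse 783 lay above every control. The difference was -0.55 (95% confidence interval -1.0 to -0.10), or 0.684 of the control level (0.501 to 0.934), with an exact two-sided permutation p of 0.0455 and an adjusted p of 0.725. Such permutation p-values are not adjusted over the 87 members, and the smallest that 6 against 6 mice allow is 0.0022. Without mouse 783 the difference was -0.71. With the interquartile range of the array as a covariate it was -0.23 and with the fibroblast mean -0.58, neither with an unadjusted p under 0.05. In bulk tissue, fewer cells of a type and less RNA per cell cannot be told apart.

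Of the 7 members of subfamily 2J, Cyp2j9 included, 5 were higher and 2 lower, with a median of 0.07. Cyp2j6, an arachidonic acid epoxygenase of the intestine, lay at 5.15, 5.88 and 6.09 in controls (lowest, median and highest mouse) and at 5.01, 5.65 and 6.60 in Zfp148gt/+APCMin/+ mice. The wider range of the latter enclosed that of the controls, and the difference was 0.02 (-0.53 to 0.58, adjusted p = 0.990). The dim gene Cyp2j11 was 1.65, 1.94 and 2.28 in controls and 2.07, 2.22 and 2.42 in Zfp148gt/+APCMin/+ mice, a difference of 0.28 (0.02 to 0.54, exact permutation p = 0.0433, adjusted p = 0.725), with 2 of 6 mice above every control.

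**Figure D2:**
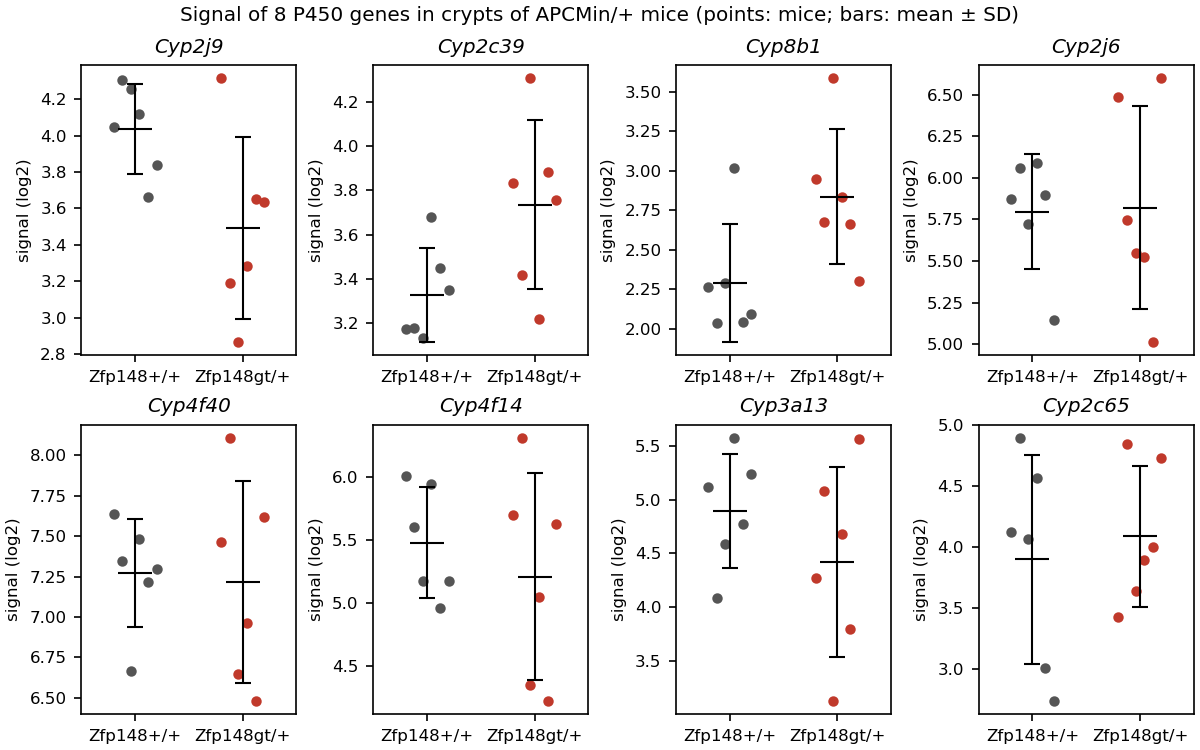
Signal (log2) of 8 P450 genes in each mouse, controls in grey and Zfp148gt/+APCMin/+ mice in red, with mean ± SD (n = 6 mice per genotype) and a separate axis per gene. For Cyp2j9, 5 of 6 Zfp148gt/+APCMin/+ mice lie below every control; for Cyp2c39, 4 of 6 lie above every control, and in the other panels the groups overlap more.

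Subfamily 2C held the bright member with the largest increase. Of its 14 genes, enzymes of drugs, retinoids and arachidonic acid, 11 were higher and 3 lower, with a median of 0.15. Cyp2c39, known from mouse liver as a retinoic acid hydroxylase, was 3.14, 3.27 and 3.68 in controls and 3.22, 3.79 and 4.31 in Zfp148gt/+APCMin/+ mice. In 4 of 6 Zfp148gt/+APCMin/+ mice it lay above every control. The difference was 0.41 (0.05 to 0.77), or 1.33 times the control level (1.03 to 1.70), with an exact permutation p of 0.0390 and an adjusted p of 0.725. It ranged from 0.29 to 0.51 as each mouse was left out in turn, and 6 of those 12 fits kept an unadjusted p under 0.05. With the interquartile range of the array as a covariate it was 0.28 and with the fibroblast mean 0.43, neither at that level.

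The intestinal 2C genes with the HNF4A motif shown above gave small differences and a wide spread. Cyp2c65, an arachidonic acid epoxygenase of the gut, was 2.74, 4.09 and 4.89 in controls and 3.42, 3.94 and 4.84 in Zfp148gt/+APCMin/+ mice, a difference of 0.19 (-0.62 to 0.99, adjusted p = 0.931). Cyp2c68 was 4.36, 4.84 and 5.46 in controls and 4.24, 4.85 and 5.44 in Zfp148gt/+APCMin/+ mice, a difference of 0.01 (-0.52 to 0.54), and its direction turned when arrays were centred. Cyp2c66 and Cyp2c55, other 2C genes known from the gut, were dim here. Cyp2c66 was 1.30, 1.51 and 1.61 in controls and 1.48, 1.69 and 1.99 in Zfp148gt/+APCMin/+ mice, a difference of 0.24 (-0.0034 to 0.47, exact permutation p = 0.0606). Cyp2c55 differed by -0.21 (-0.51 to 0.09), its second, dimmer row by -0.40, and the mean of its rows by -0.31, at an unadjusted p under 0.05. P450 genes of 1 subfamily are close in sequence, and how far their probes bind the transcripts of neighbours was not tested.

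Among the 9 genes of subfamilies 2A and 2B 7 were higher and 2 lower, with a median of 0.08 and none at an unadjusted p under 0.05. Cyp2a22, the bright member of this group, was 3.55, 4.03 and 4.54 in controls and 4.03, 4.31 and 4.75 in Zfp148gt/+APCMin/+ mice, a difference of 0.26 (-0.12 to 0.64, adjusted p = 0.785). With the fibroblast mean as a covariate it was 0.71, the 1 of 11 alternatives other than leaving out 1 mouse with an unadjusted p under 0.05. Cyp2b10, the classical target of the nuclear receptor Nr1i3 in mouse liver, was dim in all mice (1.64 to 2.29) and differed by 0.12 (-0.11 to 0.35). Subfamily 2D, the mouse relatives of the human drug-metabolising gene CYP2D6, had 6 of 9 genes higher and 3 lower, with a median of 0.10. Cyp2d22, 1 of its 3 genes above the median signal, was 3.97, 4.01 and 4.58 in controls and 3.37, 3.96 and 4.13 in Zfp148gt/+APCMin/+ mice. The difference was -0.25 (-0.56 to 0.06, adjusted p = 0.757), and 3 of 6 Zfp148gt/+APCMin/+ mice lay below every control. With the fibroblast mean as a covariate it was -0.65, again the 1 of 11 such alternatives with an unadjusted p under 0.05. Cyp2d26, also above the median signal, had the largest SD of all members when pooled over the 2 genotypes (0.751) and differed by -0.35 (-1.18 to 0.47). The dim gene Cyp2d13 was 1.69, 1.93 and 2.26 in controls and 1.97, 2.24 and 2.71 in Zfp148gt/+APCMin/+ mice, a difference of 0.33 (0.03 to 0.62, exact permutation p = 0.0433, adjusted p = 0.725).

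The remaining 8 genes of family 2 were 4 higher and 4 lower, with a median of 0.01. Cyp2s1, an epithelial P450 that the aryl hydrocarbon receptor can induce, was narrow in controls (5.63, 5.69 and 5.90) and wide in Zfp148gt/+APCMin/+ mice (5.24, 5.52 and 6.28). In 4 of 6 Zfp148gt/+APCMin/+ mice it lay below every control and in mouse 783 above every control, and the difference was -0.12 (-0.44 to 0.20, adjusted p = 0.883). Without mouse 783 it was -0.26, at an unadjusted p under 0.05, and with the interquartile range of the array as a covariate -0.00099. Cyp2u1, which hydroxylates long-chain fatty acids, was 4.97, 5.73 and 6.30 in controls and 4.71, 5.28 and 5.90 in Zfp148gt/+APCMin/+ mice. Its difference was -0.34 (-0.89 to 0.20, adjusted p = 0.80) and turned to 0.18 with the fibroblast mean as a covariate.

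Family 3, which holds the main drug-metabolising enzymes of gut and liver, had 6 of 7 genes higher and 1 lower, with a median of 0.18. The gene that was lower was also the bright one. Cyp3a13, a 3A enzyme known from mouse intestine, was 4.08, 4.95 and 5.58 in controls and 3.13, 4.48 and 5.57 in Zfp148gt/+APCMin/+ mice. The groups overlapped over most of this range, and the difference was -0.48 (-1.28 to 0.33, adjusted p = 0.803). Cyp3a25 was 1.36, 1.76 and 2.51 in controls and 1.16, 2.21 and 3.12 in Zfp148gt/+APCMin/+ mice, a difference of 0.48 (-0.16 to 1.12, adjusted p = 0.773). It was 0.97 with the interquartile range of the array as a covariate, 0.61 with the enterocyte mean and 0.70 without mouse 892, each at an unadjusted p under 0.05. Cyp3a11, the main 3A enzyme of mouse liver, was dim in 11 mice (at most 2.43) and highest in Zfp148gt/+APCMin/+ mouse 783 (3.38). Its difference was 0.18 (-0.32 to 0.68), and without mouse 783 it was -0.04. The dim gene Cyp3a16 was 1.25, 1.39 and 1.51 in controls and 1.42, 1.53 and 1.92 in Zfp148gt/+APCMin/+ mice, with 4 of 6 mice above every control and a difference of 0.24 (0.01 to 0.46, exact permutation p = 0.0281, adjusted p = 0.731).

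Family 4, the fatty acid and eicosanoid hydroxylases, had 4 genes higher and 11 lower and a median of -0.06. Of its 9 genes above the median signal 8 were lower, with a median of -0.10, beside -0.04 for all brighter rows, and none had an unadjusted p under 0.05. Cyp4f40, the member of highest signal, was 6.66, 7.32 and 7.63 in controls and 6.48, 7.22 and 8.11 in Zfp148gt/+APCMin/+ mice. The wider range of the latter enclosed that of the controls, and the difference was -0.06 (-0.62 to 0.50, adjusted p = 0.970). Cyp4f14, which inactivates leukotriene B4, was 4.96, 5.39 and 6.01 in controls and 4.22, 5.34 and 6.31 in Zfp148gt/+APCMin/+ mice, a difference of -0.27 (-1.0 to 0.46, adjusted p = 0.885). Cyp4f13 was 4.17, 4.50 and 4.94 in controls and 3.82, 4.16 and 5.13 in Zfp148gt/+APCMin/+ mice, a difference of -0.26 (-0.70 to 0.18), with 3 of 6 mice below every control. Without mouse 911 it was -0.44, at an unadjusted p under 0.05. Cyp4v3, the mouse counterpart of the gene mutated in human Bietti crystalline dystrophy, was 4.72, 5.48 and 6.24 in controls and 4.14, 5.45 and 6.31 in Zfp148gt/+APCMin/+ mice. It differed by -0.04 (-0.85 to 0.77), and its direction turned when mouse 783 was left out (0.22). Cyp4x1 varied least among the brighter members. It was 3.07, 3.13 and 3.32 in controls and 3.21, 3.26 and 3.42 in Zfp148gt/+APCMin/+ mice, a difference of 0.14 (-0.03 to 0.30, exact permutation p = 0.0195, adjusted p = 0.752), with 2 of 6 mice above every control.

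The sterol and bile acid genes of families 7, 8, 27, 39 and 46 had 5 of 6 members higher and 1 lower, with a median of 0.10. Cyp8b1, the sterol hydroxylase that sets the share of cholic acid among bile acids, had the largest increase of all members but was dim. It was 2.04, 2.18 and 3.02 in controls and 2.30, 2.76 and 3.59 in Zfp148gt/+APCMin/+ mice, and only mouse 892 lay above every control. The difference was 0.54 (0.09 to 1.0), or 1.46 times the control level (1.06 to 2.0), with an exact permutation p of 0.0433 and an adjusted p of 0.725. With the interquartile range of the array as a covariate it was 0.02. Cyp7a1, the rate-limiting enzyme of bile acid synthesis in the liver, was also dim, at 1.35, 1.59 and 1.84 in controls and 1.72, 1.78 and 2.10 in Zfp148gt/+APCMin/+ mice. Its difference was 0.25 (0.02 to 0.48, exact permutation p = 0.0281, adjusted p = 0.725). Both genes are known from hepatocytes. The hepatocyte marker mean was 2.61 to 2.93 in Zfp148gt/+APCMin/+ mice and 2.65 to 3.26 in controls, with 4 of 10 markers higher in Zfp148gt/+APCMin/+ mice and 6 lower, and their part in the result was not tested. The bright sterol genes gave smaller differences. Cyp39a1, an oxysterol hydroxylase, was 5.41, 6.17 and 6.66 in controls and 5.73, 6.20 and 6.72 in Zfp148gt/+APCMin/+ mice, a difference of 0.14 (-0.30 to 0.59, adjusted p = 0.901). Cyp27a1, the mitochondrial sterol hydroxylase, was 3.75, 3.81 and 4.43 in controls and 3.20, 3.81 and 5.07 in Zfp148gt/+APCMin/+ mice, with a difference of 0.05 (-0.58 to 0.68). With the interquartile range of the array as a covariate it was 0.78, the 1 of 11 alternatives other than leaving out 1 mouse with an unadjusted p under 0.05.

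The steroid hormone genes of families 11, 17 and 21 were all 5 higher, with a median of 0.07 and none at an unadjusted p under 0.05. Cyp11a1, which opens steroid synthesis by cutting the side chain of cholesterol, was the bright one, at 2.87, 3.16 and 3.31 in controls and 2.78, 3.08 and 4.44 in Zfp148gt/+APCMin/+ mice. Its difference of 0.21 (-0.31 to 0.74) rested on mouse 893 and was -0.01 without it. Cyp26b1, which clears retinoic acid, was 2.77, 3.11 and 3.53 in controls and 2.57, 2.95 and 3.17 in Zfp148gt/+APCMin/+ mice, a difference of -0.23 (-0.57 to 0.10, adjusted p = 0.783) that turned to 0.11 with the fibroblast mean as a covariate. Cyp20a1, an orphan P450 of unknown substrate, was 3.72, 4.07 and 5.03 in controls and 3.96, 4.36 and 4.89 in Zfp148gt/+APCMin/+ mice, a difference of 0.05 (-0.46 to 0.57). The family 1 genes, the classical targets of the aryl hydrocarbon receptor, were all 3 below the median signal. Cyp1a1 lay between 2.02 and 2.61 in all mice and differed by -0.02 (-0.24 to 0.20). Cyp1b1 was 2.05, 2.31 and 2.94 in controls and 1.89, 2.31 and 3.59 in Zfp148gt/+APCMin/+ mice, a difference of 0.23 (-0.35 to 0.81).

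**Figure D3:**
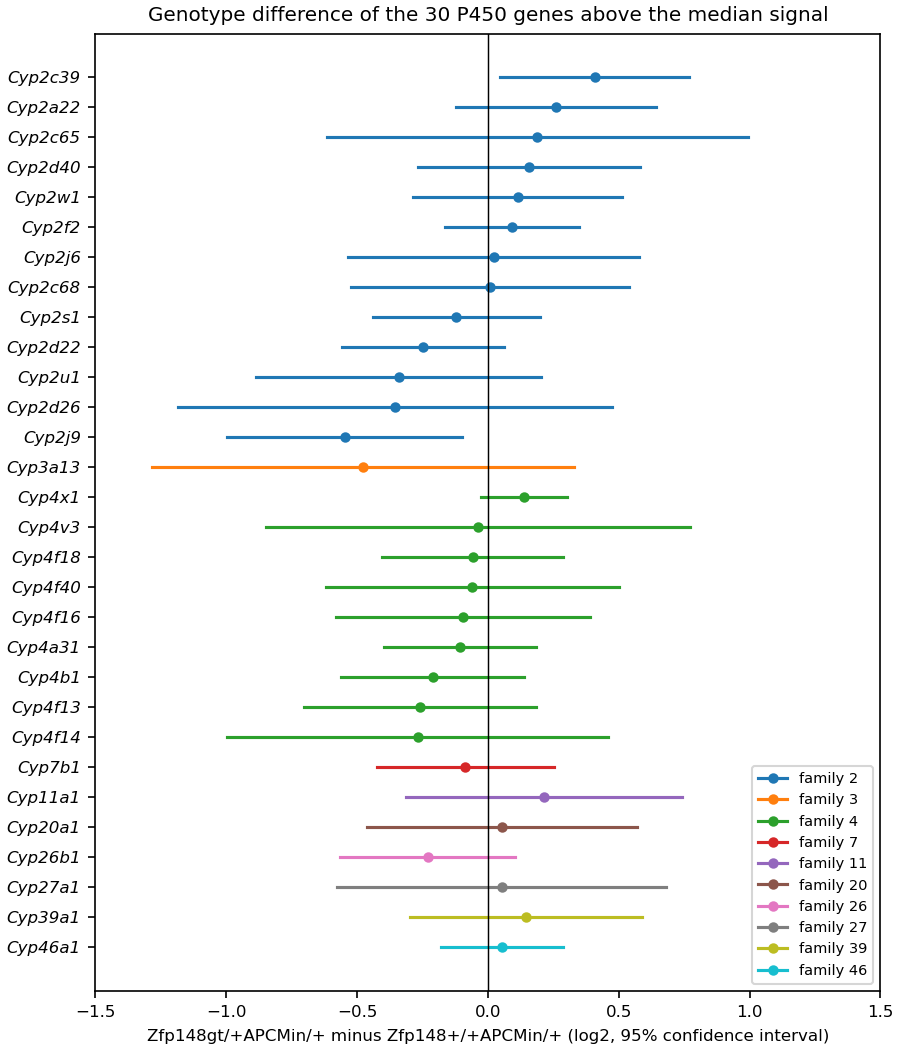
Difference between genotypes (log2, Zfp148gt/+APCMin/+ minus control) of the 30 P450 genes above the median signal, with 95% confidence intervals from limma (n = 6 mice per genotype), coloured by family. The intervals of Cyp2j9 (-1.0 to -0.10) and Cyp2c39 (0.05 to 0.77) do not reach 0, and 8 of the 9 genes of family 4 lie left of it.

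Genes that serve or control the P450 enzymes were tested in the same fit, from lists chosen with earlier results known, and none passed the adjusted test. Of 18 genes for electron donors and haem supply 15 were measured, of which 5 were higher and 10 lower, with a median of -0.08. At an unadjusted p under 0.05 there was 1 lower, Cpox of haem synthesis (-0.67, -1.23 to -0.11, adjusted p = 0.725). Of the 16 transcriptional regulators measured, 3 were higher and 13 lower, with a median of -0.11. Here Nr0b2, the small heterodimer partner that represses bile acid synthesis, was the 1 gene lower at this level (-0.23, -0.42 to -0.03, adjusted p = 0.725). It was dim, with a mean signal of 2.36, and 0.675% of all dimmer rows were lower at this level. In each of the 2 lists 14 genes lay above the median signal. Of all brighter rows 41.6% were higher, 5.08% were lower at an unadjusted p under 0.05, and the median was -0.04. The xenobiotic receptors Nr1i2 and Ahr differed by -0.07 (-0.56 to 0.43) and -0.28 (-0.70 to 0.15), and Hnf4a, whose motif is shown above, by -0.03 (-0.24 to 0.18).

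P450 genes were also set against the mean of 16 villus enterocyte markers, since the share of mature enterocytes in a crypt cut can differ between mice. With genotype in the limma fit, 6 of the 87 members had a positive slope on this mean at an unadjusted p under 0.05, against 3.1% of all rows, and 3 had a negative slope, against 2.75%. Of the 30 brighter members 5 were positive, against 5.0% of the brighter rows, and 1 was negative, against 2.92%. No member passed the adjusted test, as 0.0118% of all rows did. The steepest positive slope was that of Cyp4f14, 1.37 per unit of the marker mean (log2 per log2; 0.72 to 2.03, adjusted p = 0.439), and it stayed within 1.17 to 1.52 as each mouse was left out in turn. Cyp3a13 followed with 1.28 (0.39 to 2.16, adjusted p = 0.696; 0.94 to 1.51 as mice were left out) and Cyp2d26 with 1.20 (0.23 to 2.17, adjusted p = 0.763). For Cyp4f40 the slope was 1.06 (0.55 to 1.56, adjusted p = 0.439; 0.87 to 1.27 as mice were left out). Cyp3a25 (1.05) and Cyp27a1 (0.87) also had positive slopes, and Cyp20a1 (-0.70), Cyp3a44 (-0.39) and Cyp21a1 (-0.25) negative ones. Without the mice farthest from the median in the marker mean, control 782 and Zfp148gt/+APCMin/+ mouse 892, 4 members were positive at this level, against 2.7% of all rows in the same fit, and 0 were negative, against 2.65%. The slopes are drawn over 12 mice that share the scaling of the arrays.

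The slopes were also fitted within each genotype. In Zfp148gt/+APCMin/+ mice 8 members were positive at an unadjusted p under 0.05, against 3.48% of all rows, and 0 were negative, against 2.97%. In controls 0 were positive, against 1.95%, and 2 were negative, against 1.98%. Whatever their p, 18 of the 30 brighter members had a positive slope in Zfp148gt/+APCMin/+ mice and 20 in controls. Cyp4f14 had a slope of 1.88 in Zfp148gt/+APCMin/+ mice and 0.77 in controls, and Cyp4f40 had 1.43 and 0.61. The difference of the slopes itself was fitted as an interaction in limma. At an unadjusted p under 0.05, 5 members had the more positive slope in Zfp148gt/+APCMin/+ mice, against 2.43% of all rows. In the other direction there was 1 (Cyp2c40, -0.72), against 2.28%. Among the 5, Cyp3a13 had a slope of 2.09 in Zfp148gt/+APCMin/+ mice and 0.31 in controls, a difference of 1.78 (0.31 to 3.25, adjusted p = 0.999). Cyp2d26 had 2.03 and 0.21, a difference of 1.82 (0.15 to 3.49, adjusted p = 0.999). The others were dim and had the opposite sign in controls: Cyp2e1 0.18 and -0.55, Cyp2b23 0.36 and -0.46, and Cyp2b13 0.53 and -0.05. No member passed the adjusted test for this difference. In the lowest Zfp148gt/+APCMin/+ mice of the marker mean, 892 and 897, Cyp3a13 was 3.13 and 3.80, below every control, and Cyp4f14 was 4.35 and 4.22, also below every control. The array of mouse 892 had the narrowest interquartile range of the 12 (2.69) and the lowest median correlation with the others (0.967). Slopes within a genotype and their difference were not refitted with single mice left out.

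**Figure D4:**
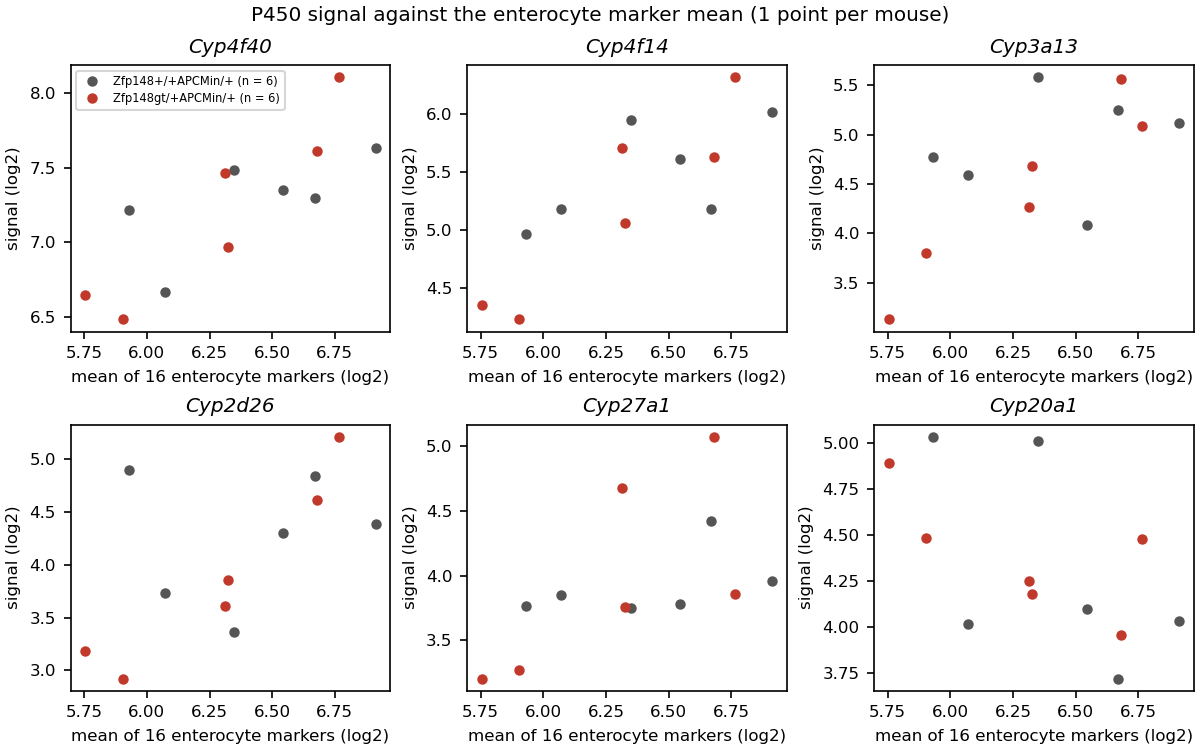
Signal (log2) of 6 P450 genes against the mean of 16 villus enterocyte markers (log2) in each of the 12 mice, controls in grey and Zfp148gt/+APCMin/+ mice in red. Cyp4f40, Cyp4f14, Cyp3a13, Cyp2d26 and Cyp27a1 have positive slopes on the marker mean (0.87 to 1.37), and Cyp20a1 a negative one (-0.70).

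P450 genes were set against 2 other measures of the samples as well. Slopes on the fibroblast mean had an unadjusted p under 0.05 in 2 members upward (Cyp2a22, 1.07, and Cyp4b1, 0.91) and 3 downward (Cyp2d22, -0.95, with Cyp11b2 and Cyp2d10), against 6.25% of all rows in either direction. Xist was high (9.01 to 9.59) in 2 mice of each genotype and at most 2.46 in the other 8, which marks female animals. Slopes on Xist had an unadjusted p under 0.05 in 1 member upward, Cyp2c37, and 5 downward, Cyp2c65, Cyp7b1, Cyp2j9, Cyp4f14 and Cyp2d22, against 6.58% of all rows in either direction. All 5 downward were among the 30 brighter members, where 0 were upward, and the share of all brighter rows was not counted for Xist. No member passed the adjusted test. For Cyp2c65 the slope was -0.14 per unit of Xist signal (-0.23 to -0.05, adjusted p = 0.688). Its signal was 3.01 and 2.74 in the Xist-high controls 895 and 899, below the other controls (4.06 to 4.89), and 3.64 and 3.89 in the Xist-high Zfp148gt/+APCMin/+ mice 892 and 893, within the range of the others (3.42 to 4.84). With Xist as a covariate the genotype difference of Cyp2j9 was -0.52, beside -0.55 without it.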

How the data were processed

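RNA from crypt-enriched tissue of 12 mice was hybridised to 1 array each. The authors normalized the arrays by RMA in Affymetrix Expression Console and deposited values read here as log2 signal, since they run from 0.85 to 13.24; fold changes printed as ratios rest on that reading. For its version, library files and build, nothing was given in the sources used here. Array signal has no read depth, so the number of mice limits the precision. Genotypes and mouse numbers came from the sample labels. Of the rows, 23521 carried 1 symbol, 1820 several and 8452 no listed gene; 6 rows with several symbols including a P450 and 9 P450 rows of another form were left out.

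Genotypes were compared in limma 3.58.1 (lmFit, eBayes; R 4.3.3) over all 33793 rows, with Benjamini-Hochberg adjustment, a threshold of 0.05 and 95% confidence intervals. Exact two-sided permutation tests used all 924 assignments of the mice. No filter was applied. The fits were tested on simulated data. The text names the 12 brightest members, the 3 per direction of smallest p among members above the median signal and members known from intestine, stroma, steroids or retinoids, in all 27 genes; Cyp2d13, Cyp2j11, Cyp3a16, Cyp7a1, Cyp8b1 and Cyp2d26, and those listed only by slope or motif, were named after their values were seen. Members and lists were chosen with earlier results of these data known. Alternatives were other scalings, filters, variance models and covariates, weights for arrays, averaging the rows of a gene, the methods' t-test, and leaving out mice; the covariate Xist, the slopes and their interaction were added after seeing the data. Promoters came from RefSeq, GRCm38.p6; 1 further motif searched is not reported here. Python 3.11.15, pandas 2.3.3 and matplotlib 3.10.9 were used for tables and plots.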

Additional observations from a re-analysis of the deposited data

Results flagged for a closer look

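Among 64 groups of 6 mice, each named P450 gene in each genotype, 5 held a mouse set far apart from the others by Dixon's criterion, which chance alone does in about 1 in 20 groups. Cyp27a1 was 4.43 in control mouse 899, with 3.96 next. Cyp2d22 was 3.37 in Zfp148gt/+APCMin/+ mouse 892, with 3.90 next. Control mouse 889 was highest for Cyp4x1, at 3.32 with 3.16 next, and for Cyp8b1, at 3.02 with 2.29 next. Cyp7a1 was 2.10 in Zfp148gt/+APCMin/+ mouse 897, with 1.85 next.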

How the results depend on the processing

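No P450 gene passed the adjusted test under any alternative run, the methods' t-test included (9 higher and 1 lower before Benjamini-Hochberg, 0 after). The 6 genes higher at an unadjusted p under 0.05 became 2 with arrays centred on their medians or quantile normalized again, 1 among brighter rows only, 3 without mice 782 and 783, and 2 to 8 as each mouse was left out. The 1 lower became 2 with the mean of a gene's rows, 3 without mice 782 and 783, and 1 to 2 as each mouse was left out. The median difference of 0.07 was 0.023 with arrays centred, 0.026 after quantile normalization and -0.048 among brighter rows only. Cyp2j9 kept an unadjusted p under 0.05 as each mouse was left out (-0.71 to -0.42), and lost it, as did Cyp2c39 and Cyp8b1, with the interquartile range or the fibroblast mean as a covariate. Of the 11 alternatives other than leaving out 1 mouse, Cyp2j9 kept it in 9 and Cyp2c39 in 8. Cyp8b1 kept it in 7 of 10. The interquartile range was 2.77 ± 0.09 (SD, n = 6) in Zfp148gt/+APCMin/+ mice and 2.92 ± 0.07 in controls, and the fibroblast mean 6.55 ± 0.21 and 6.97 ± 0.19. Both covariates thus differed by genotype, so differences fitted with them are less precise. The share of all rows called in those fits was not counted. No paired analysis was possible because the methods do not say which mice were littermates.

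Of 724 values of 32 named genes, 49 in 12 genes turned sign, none of them of a gene past an unadjusted p of 0.05; the cause was not tested. Centring gave -0.035 for Cyp2c68 and -0.021 for Cyp2j6, and quantile normalization 0.047 for Cyp4v3. The interquartile range as a covariate gave -0.47 for Cyp20a1, -0.078 for Cyp2c68 and 0.086 for Cyp4f40. The enterocyte mean gave -0.032 for Cyp20a1, 0.069 for Cyp4f40 and 0.073 for Cyp4v3. The fibroblast mean gave 0.010 for Cyp1a1, -0.23 for Cyp20a1, 0.11 for Cyp26b1, -0.0095 for Cyp2c68, 0.18 for Cyp2u1 and 0.016 for Cyp4v3. Without mice 782 and 783 the values were 0.012 for Cyp1a1, -0.080 for Cyp27a1, -0.096 for Cyp2j6, -0.12 for Cyp3a11 and 0.33 for Cyp4v3. As each mouse was left out, Cyp11a1 ran from -0.0059 to 0.33, Cyp1a1 from -0.080 to 0.039, Cyp20a1 from -0.066 to 0.20, Cyp27a1 from -0.17 to 0.21, Cyp2c65 from -0.044 to 0.39, Cyp2c68 from -0.11 to 0.13, Cyp2j6 from -0.13 to 0.18, Cyp3a11 from -0.039 to 0.28, Cyp4f40 from -0.24 to 0.086 and Cyp4v3 from -0.22 to 0.22.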
